A study of Mus musculus with 12 samples.

Results

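The genes described here were 10 markers used to tell fibroblast subsets of the mouse lung apart, taken by their symbols from a table of 55414 genes. They were Pdgfra, Tcf21, Wnt2, Npnt, Inmt, Limch1 and Mfap4, which mark fibroblasts of the alveolar walls, Pi16 and Mfap5, which mark adventitial fibroblasts around vessels and airways, and Gli1, a target of Hedgehog signaling found in mesenchyme near airways and vessels. Alveolar fibroblasts lie against the alveolar epithelium and supply it with growth factors and matrix, some of them store lipid, and Wnt ligands from them help to maintain alveolar type 2 cells. Adventitial fibroblasts sit in the cuffs around bronchi and larger vessels and are regarded as a reserve population, marked in many organs by Pi16. After injury, fibroblasts can lose subset markers while they take up genes of inflammation or of matrix deposition.

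A lung of each of 12 mice on a C57BL/6 J background was analyzed. IL-10 B-WT animals (n = 6, called controls or control lungs here) were compared with IL-10 B-KO animals (n = 6, knockout lungs). Every mouse had received 50 µg of lipopolysaccharide (LPS), a bacterial wall component that causes acute lung injury, and was killed on day 4. IL-10 B-KO mice were bred from Il10 flox/flox and mb1-cre mice, so that Il10, which encodes an anti-inflammatory cytokine, is deleted in cells of the B lineage, where the mb1 (Cd79a) promoter drives Cre. Which of these alleles the IL-10 B-WT mice carried is not stated in the labels, nor is the age of the mice. Lungs without LPS were not analyzed here, so that every value is one of an injured lung. In whole-lung RNA, fewer cells of a type and less RNA per cell cannot be told apart.

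The values were TPM, a relative transcript abundance scaled for the length of the gene and the total of the library, which allows a comparison between genes. Correlations between libraries lay between 0.893 and 0.921 (Spearman's rho across genes, which are not independent replicates). Il10 itself lay between 0 and 0.88 TPM in controls and between 0 and 0.58 TPM in knockout lungs and does not check the genotype at this level (exact permutation p = 0.745). Cd79a, a B cell marker and the gene whose promoter drives Cre, lay between 15.3 and 258.64 TPM in controls. In knockout lungs it lay between 0 and 5.73 TPM. Loss of Il10 in B cells and lower B cell transcripts cannot be told apart in this comparison, and their parts in other differences were not tested. A pair of control lungs stood apart. IL-10 B-WT replicate 1 had the highest summed TPM of 10 macrophage markers of all 12 lungs (11900) and of the collagen and proteoglycan genes among the controls (1110). IL-10 B-WT replicate 5 had the lowest macrophage sum (667) and the lowest sum of 10 alveolar type 2 markers (4000). Many of the counts of genes that leaving out either lung moved by over 1.5 times are given with and without it. Counts of called genes within the lists are given only in part.

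All 10 markers passed the filter on low values (TPM of 1 or more in 6 libraries or more), as did 15148 genes in all, and no marker was at 0 in any lung. With limma, 0 of the 10 reached the threshold for a differentially expressed gene (adjusted p no higher than 0.05 and a log2 fold change of 1 or more in size), against 71 tested genes (0.469%) called lower and 4 (0.0264%) called higher in knockouts. With the unadjusted p at 0.05 or below, 4 of the 10 were lower in knockout lungs and 0 were higher, where 5.71% of tested genes were lower and 6.83% higher. These were Tcf21, Npnt, Inmt and Wnt2, all of the alveolar set. Without control replicate 1 the count was again 4 (7.15% of tested genes lower) and without replicate 5 it was 5 (8.01%). Leaving out either control moved the counts over all genes as well. Without replicate 1, 232 genes were called lower and 344 higher, and 2677 of 14930 were higher at the unadjusted p. Without replicate 5, 22 were called lower and 1 higher, and 479 of 15038 were higher at that p. The counts for lists in these fits, given below, stand beside these shares. When limma weighted each library by its quality, 3 of the 10 were called lower, namely Tcf21, Npnt and Inmt. That weighted fit called 237 of the 15148 tested genes lower and 81 higher. The 7 alveolar markers all had a lower mean in knockout lungs (median of their log2 fold changes −0.65), whereas the median of all tested genes was 0.10 and 36.8% of them were below 0. For the adventitial pair the median was −0.05. In none of the 10 did the groups separate fully, a pattern seen in 0.924% of tested genes toward lower and 0.0924% toward higher values.

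**Figure D1:**
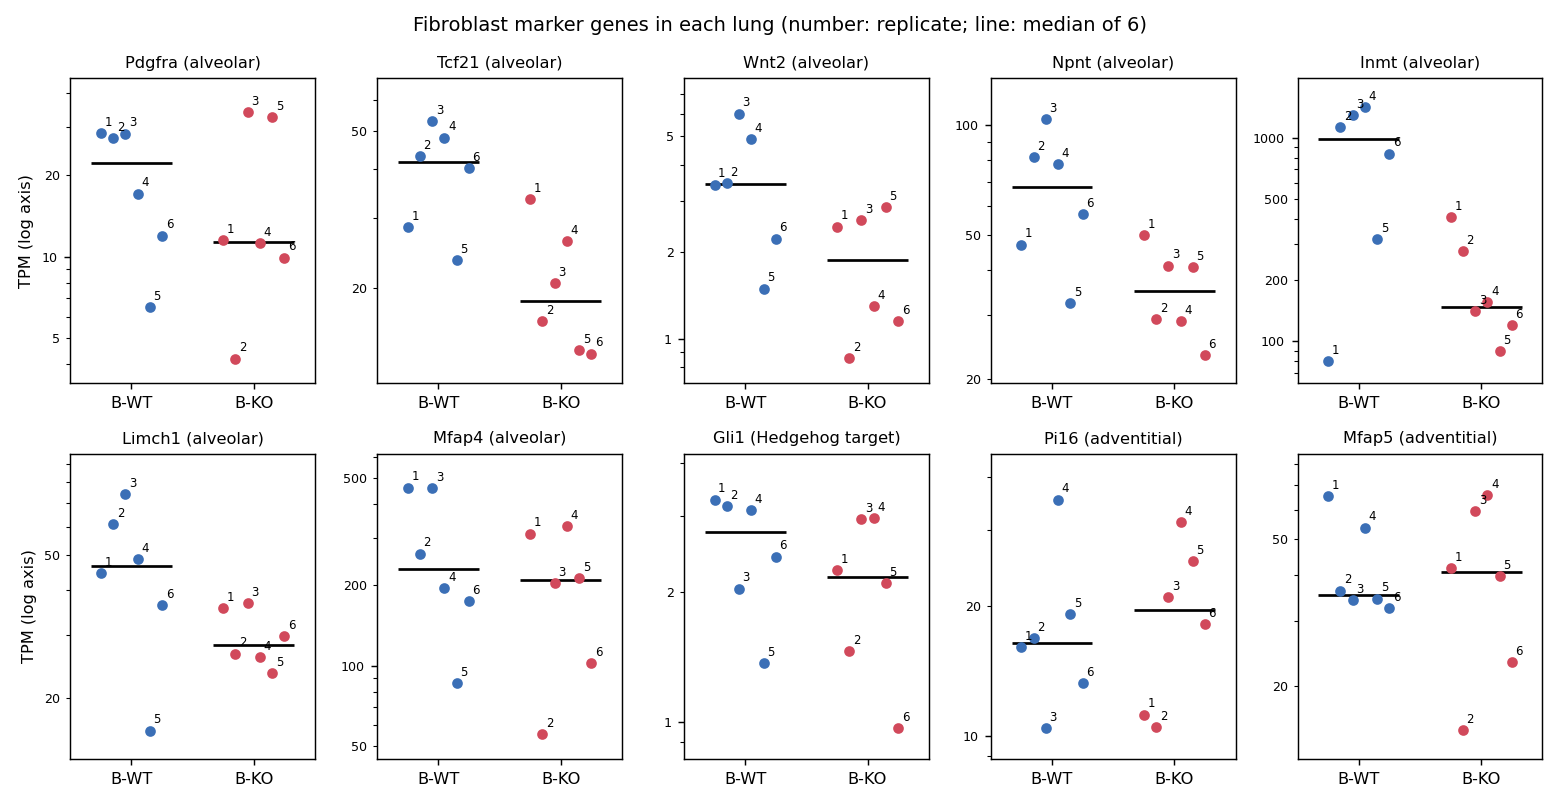
TPM (log axis) of each fibroblast marker in each of the 6 IL-10 B-WT (blue) and 6 IL-10 B-KO (red) lungs, numbered by replicate, with a line at the median of each group. The medians stand well apart for Tcf21 (41.7 and 18.5 TPM) and Inmt (983 and 148 TPM) and close together for Mfap4 (229 and 208 TPM) and Mfap5 (35.4 and 40.7 TPM).

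The regions around the start sites of the 4 alveolar markers that were lower at that unadjusted p are shown first, since they are the genes on which the comparison turns; the choice was made after their values were seen. Each sequence runs 5′ to 3′ on the strand of its gene, from 250 bases before to 50 bases after a RefSeq start site on GRCm38.p6. Capitals mark matches on either strand to any of 7 motifs searched, whose letters are given below with the share of all windows that hold them.
Tcf21, chr10:22820094-22820393, minus strand: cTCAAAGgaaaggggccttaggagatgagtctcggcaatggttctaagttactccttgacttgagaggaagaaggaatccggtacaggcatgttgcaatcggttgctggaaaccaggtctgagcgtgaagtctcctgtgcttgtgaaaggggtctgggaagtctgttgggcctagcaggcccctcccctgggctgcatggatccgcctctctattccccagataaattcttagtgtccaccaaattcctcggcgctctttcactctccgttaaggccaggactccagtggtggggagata
Npnt, chr3:132950242-132950541, minus strand: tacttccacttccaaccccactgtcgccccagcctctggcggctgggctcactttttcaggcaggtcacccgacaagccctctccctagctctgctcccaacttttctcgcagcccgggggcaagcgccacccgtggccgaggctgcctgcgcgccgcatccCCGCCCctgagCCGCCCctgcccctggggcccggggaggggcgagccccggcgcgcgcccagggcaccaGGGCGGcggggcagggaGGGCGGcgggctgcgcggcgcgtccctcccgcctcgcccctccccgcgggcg
Inmt, chr6:55174941-55175240, minus strand: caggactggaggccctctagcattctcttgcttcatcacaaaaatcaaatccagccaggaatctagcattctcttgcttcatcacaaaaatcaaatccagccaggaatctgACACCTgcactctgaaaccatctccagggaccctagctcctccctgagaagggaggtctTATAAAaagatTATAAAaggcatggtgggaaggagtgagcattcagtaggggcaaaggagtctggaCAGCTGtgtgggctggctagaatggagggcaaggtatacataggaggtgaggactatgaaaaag
Wnt2, chr6:18030396-18030695, minus strand: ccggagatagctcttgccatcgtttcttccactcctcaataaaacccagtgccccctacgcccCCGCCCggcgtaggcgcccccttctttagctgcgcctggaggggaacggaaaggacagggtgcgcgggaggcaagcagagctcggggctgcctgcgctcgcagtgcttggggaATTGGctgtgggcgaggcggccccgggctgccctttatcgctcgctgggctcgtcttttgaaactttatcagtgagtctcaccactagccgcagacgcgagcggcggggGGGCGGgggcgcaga
The 4 windows had little in common by these motifs. The Tcf21 window held 1 TCF/LEF core (CTTTGA) near its 5′ edge, in reverse complement, a motif present in 16.0% of the 32851 windows of the table. The printed Npnt window had a GC content of 76.7%, against a median of 52.7% over all windows, and held 4 GC boxes (GGGCGG), a motif found in 35.7% of windows. A second Npnt start site in the table, at chr3:132949765-132950064 with 68.0% GC, held 0 of the 7 motifs and is not shown. In the Inmt window, at 47.7% GC, the TATA box (TATAAA) occurred at 2 places (13.6% of windows held it), beside 1 E-box of the form CAGCTG (16.3%). It also held 1 T-box core, searched as AGGTGT and present in reverse complement (13.7%). The Wnt2 window, at 65.7% GC, held 2 GC boxes and 1 CCAAT box, searched by these letters (37.4% of windows). The GLI site (GACCACCCA) was in none of these 4 and in 0.253% of all windows. A match is a string of letters and not a bound site. Windows were found for 7 of the 10 markers, and Gli1, Mfap4 and Mfap5 had no entry.

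Tcf21 (ENSMUSG00000045680, GRCm38 chr10:22817281-22820174, minus strand) encodes a basic helix-loop-helix transcription factor of lung mesenchyme that is needed for alveolar fibroblasts, lipid-storing ones among them. In control lungs 1 to 6 it stood at 28.5, 43.2, 53.0, 48.1, 23.5 and 40.2 TPM. In knockout lungs 1 to 6 it stood at 33.6, 16.4, 20.6, 26.2, 13.9 and 13.6 TPM. All 6 knockout lungs lay below the control median, 4 of them below every control, and the groups overlapped through control replicates 1 and 5 and knockout replicates 1 and 4. The means were 39.4 ± 11.4 and 20.7 ± 7.91 TPM (SD over 6 lungs per group). On the log2 scale the difference was −0.92 ± 0.26 (SE; 95% interval −1.47 to −0.36; limma adjusted p = 0.177; exact permutation p = 0.013). Without control replicate 1 the adjusted p was 0.050, just above the threshold, and without replicate 5 it was 0.124 at a log2 fold change of −1.05.

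Npnt (ENSMUSG00000040998, chr3:132881745-132950291, minus strand) encodes nephronectin, a basement membrane protein bound by integrin α8β1. Its levels in control lungs 1 to 6 were 47.0, 81.6, 104, 78.0, 32.4 and 56.9 TPM. Those in knockout lungs 1 to 6 were 49.9, 29.3, 41.1, 29.0, 40.7 and 23.4 TPM. Knockout replicates 2, 4 and 6 were below every control, and again replicates 1 and 5 were the low controls. The mean was 66.7 ± 26.1 TPM in controls and 35.5 ± 9.95 TPM in knockout lungs, a log2 fold change of −0.84 ± 0.27 (95% interval −1.42 to −0.25; limma adjusted p = 0.28; exact permutation p = 0.0216). Without control replicate 1 it was −0.91 (adjusted p = 0.0768) and without replicate 5 it was −1.02 (adjusted p = 0.123).

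Inmt (ENSMUSG00000003477, chr6:55170626-55175043, minus strand) encodes indolethylamine N-methyltransferase, an enzyme highly expressed in lung and a strong marker of alveolar fibroblasts in the mouse. It was the most abundant of the 10 in control lungs, with 80.0, 1129, 1298, 1415, 318 and 837 TPM in replicates 1 to 6. Knockout replicates 1 to 6 had 408, 277, 141, 156, 89.4 and 120 TPM. The lowest of all 12 lungs was thus a control, IL-10 B-WT replicate 1, while 4 of the 6 controls were above every knockout lung. The mean was 846 ± 543 TPM in controls and 199 ± 121 TPM in knockout lungs, 4.26 times higher in the controls. On the log scale the difference was −1.78 ± 0.64 (95% interval −3.17 to −0.39; limma adjusted p = 0.325; exact permutation p = 0.0411). Inmt was the 1 marker whose call turned on a single lung, since without IL-10 B-WT replicate 1 the log2 fold change was −2.35 with an adjusted p of 0.0196. Without replicate 5 it was −1.96 with an adjusted p of 0.336.

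Wnt2 (ENSMUSG00000010797, chr6:17988940-18030585, minus strand) encodes a secreted Wnt ligand that takes part in lung specification and is expressed by alveolar fibroblasts in the adult. It was a low gene, with 3.41, 3.44, 6.0, 4.91, 1.49 and 2.22 TPM in control lungs 1 to 6 (median 3.43). Knockout lungs 1 to 6 had 2.44, 0.86, 2.57, 1.30, 2.85 and 1.15 TPM (median 1.87). Knockout replicates 2, 4 and 6 were below every control, the same 3 lungs as for Npnt, and the other 3 lay inside the control range. The log2 fold change was −0.65 ± 0.27 (95% interval −1.24 to −0.06; limma adjusted p = 0.364; exact permutation p = 0.0455), a value that the added 1 TPM pulls toward 0 at such levels. It was −0.64 without control replicate 1 and −0.81 without replicate 5. The unadjusted limma p of Wnt2 was 0.0333 with all lungs. It rose above 0.05 in several fits that left out 1 lung, as to 0.0759 without knockout replicate 2 and 0.081 without control replicate 3.

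For the other 3 alveolar markers the interval of the difference included 0. Limch1 (ENSMUSG00000037736, chr5:66745827-67057158), which encodes an actin-associated protein that activates nonmuscle myosin, ranged from 16.2 to 74.0 TPM in controls (median 46.6) and from 23.5 to 36.7 TPM in knockouts (median 28.2). Of the 6 controls, 4 were above every knockout lung and 1, replicate 5, was below all of them (log2 fold change −0.52 ± 0.30, 95% interval −1.16 to 0.11, exact permutation p = 0.134). Without that lung the log2 fold change was −0.79 with an adjusted p of 0.127. Pdgfra (ENSMUSG00000029231, chr5:75152292-75198215), the receptor for PDGF-A by which many fibroblasts are sorted, ranged from 6.49 to 28.5 TPM (median 22.2) and from 4.20 to 34.1 TPM (median 11.4). Its 2 highest lungs of all 12 were knockout replicates 3 and 5, while the other 4 knockout lungs were at 11.5 TPM or less (log2 fold change −0.35 ± 0.48, 95% interval −1.38 to 0.69, exact permutation p = 0.519). Mfap4 (ENSMUSG00000042436, chr11:61485431-61488900), a microfibril-associated glycoprotein, ranged from 86.1 to 461 TPM (median 229) and from 55.5 to 331 TPM (median 208). Its groups overlapped over most of their range (log2 fold change −0.44 ± 0.49, 95% interval −1.49 to 0.61, exact permutation p = 0.437).

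For the adventitial markers and Gli1 the interval included 0 as well. Pi16 (ENSMUSG00000024011, chr17:29317680-29330593), a peptidase inhibitor domain protein, ranged from 10.5 to 35.4 TPM in controls (median 16.5) and from 10.5 to 31.4 TPM in knockouts (median 19.6). The ranges nearly coincided (log2 fold change 0.08 ± 0.31, 95% interval −0.58 to 0.75, exact permutation p = 0.803), and the sign turned under median centring (−0.03) and quantile normalization (−0.04). Mfap5 (ENSMUSG00000030116, chr6:122505845-122529290), a second microfibril glycoprotein, ranged from 32.5 to 65.5 TPM (median 35.4) and from 15.2 to 65.8 TPM (median 40.7). The lowest and the highest lung were both knockouts, replicates 2 and 4 (log2 fold change −0.17 ± 0.33, 95% interval −0.88 to 0.53, exact permutation p = 0.641), and without replicate 2 the log2 fold change was 0.07. Gli1 (ENSMUSG00000025407, chr10:127329882-127341974), the transcription factor that Hedgehog signaling induces, ranged from 1.37 to 3.28 TPM (median 2.76) and from 0.97 to 2.97 TPM (median 2.18). Its groups overlapped and its interval was the narrowest of the 10 (log2 fold change −0.21 ± 0.22, 95% interval −0.67 to 0.26, exact permutation p = 0.325). The added 1 TPM narrows the interval at such levels. With 0.1 TPM added instead, Gli1 had −0.30 ± 0.32 (SE), against −0.95 ± 0.27 for Tcf21.

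**Figure D2:**
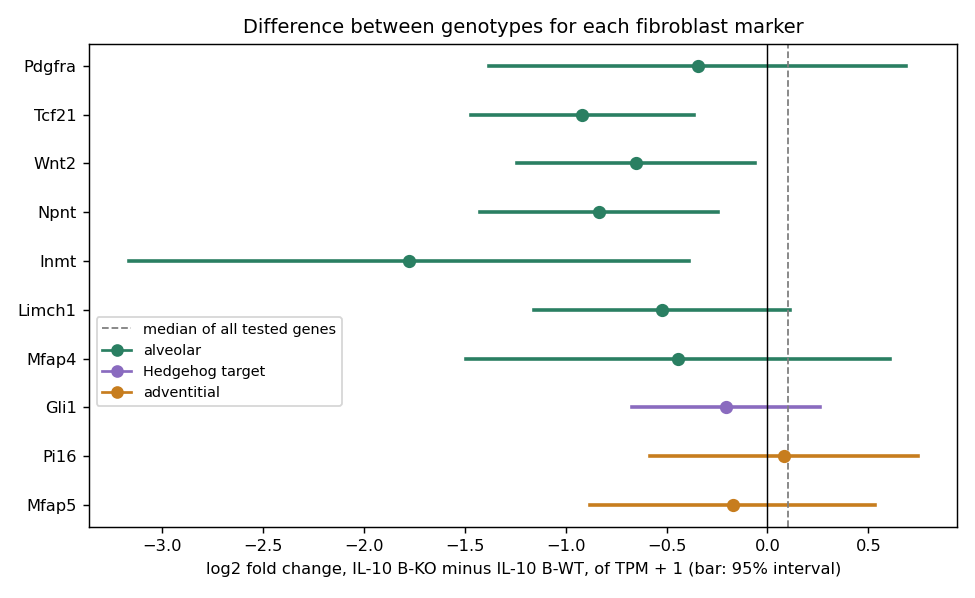
Log2 fold change of TPM + 1, IL-10 B-KO minus IL-10 B-WT, for the 10 fibroblast markers, with bars for the 95% interval from limma (6 lungs per group) and a dashed line at the median of all tested genes (0.10). The intervals of Tcf21, Wnt2, Npnt and Inmt lie below 0, and those of the other 6 cross it.

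The order of the markers by level differed between the groups. In control lungs the order of the medians was Inmt, Mfap4, Npnt, Limch1, Tcf21, Mfap5, Pdgfra, Pi16, Wnt2 and Gli1, from 983 down to 2.76 TPM. Not all neighbors were distinct, since Tcf21 was above Mfap5 in 3 of the 6 lungs and Pdgfra above Pi16 in 3 of the 6. In knockout lungs the order was Mfap4, Inmt, Mfap5, Npnt, Limch1, Pi16, Tcf21, Pdgfra, Gli1 and Wnt2, from 208 down to 1.87 TPM. Here Mfap4 was above Inmt in 3 of 6 lungs, and Gli1 above Wnt2 in 3 of 6, so that neither neighbor pair was separated. Both adventitial markers stood higher in this order than in the controls, Mfap5 above Npnt by its median but in 2 of 6 lungs only.

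Differences between markers within a lung were described next. The mean log2(TPM + 1) of the 7 alveolar markers minus that of Pi16 and Mfap5 was −0.06 to 2.18 in controls (median 0.85) and −0.55 to 0.97 in knockouts (median 0.08). The groups overlapped, the lowest control being replicate 5 and the highest knockout replicate 1. For single genes, Tcf21 minus Pi16 had a median of 1.05 in controls (0.28 to 2.24) and −0.14 in knockouts (−0.83 to 1.5). Here too the groups overlapped, with knockout replicate 1 the highest of its group. These are descriptions, with no test over the set.

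**Figure D3:**
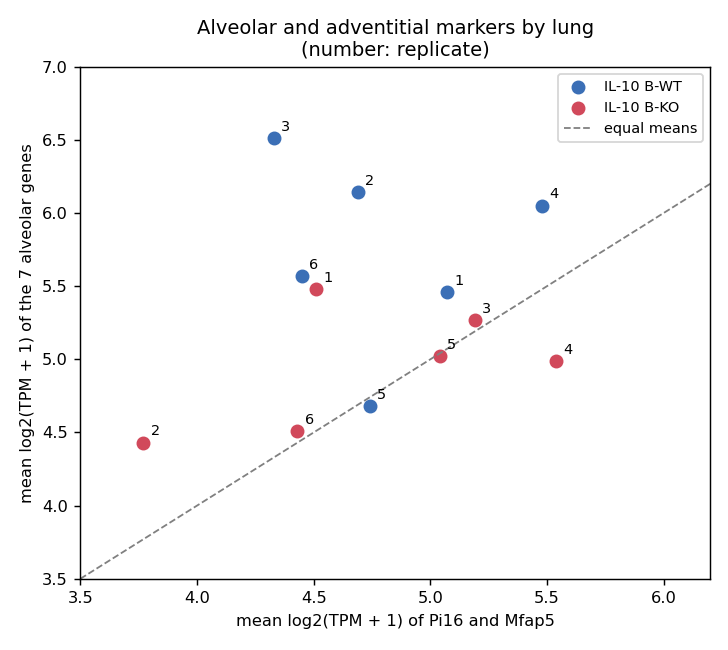
Mean log2(TPM + 1) of the 7 alveolar markers (vertical) against that of Pi16 and Mfap5 (horizontal) in each lung, IL-10 B-WT blue and IL-10 B-KO red, numbered by replicate, with a dashed line where the means are equal. By their height, IL-10 B-WT lungs 2, 3, 4 and 6 sit above all 6 IL-10 B-KO lungs, and lungs 1 and 5 of the controls lie among them.

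The markers did not vary as a block across lungs. Knockout replicates 2 and 6 had 8 of the 10 markers each among the 3 lowest lungs, the adventitial markers included for replicate 2. Knockout replicates 3 and 5, by contrast, had the 2 highest Pdgfra values while Tcf21 was at 20.6 and 13.9 TPM. Among controls, replicate 4 had 7 markers and replicates 2 and 3 had 6 each among the 3 highest lungs, and replicate 5 had 4 among the 3 lowest. Pi16 was lowest of all in control replicate 3, the lung with the highest Tcf21, Wnt2, Npnt and Limch1.

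**Figure D4:**
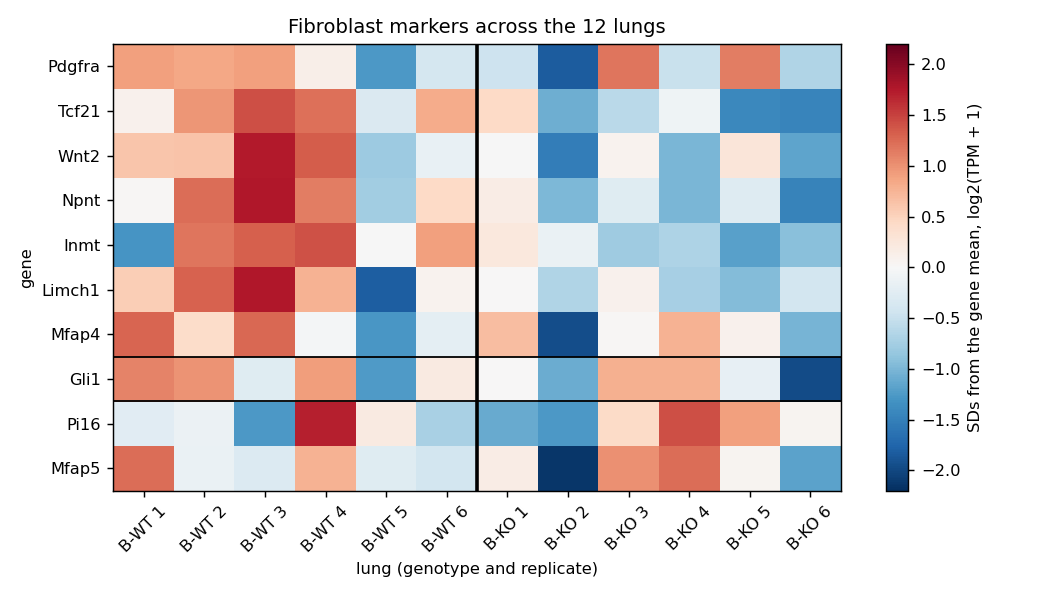
Level of each marker (rows) in each lung (columns), as the number of SDs of log2(TPM + 1) from the mean of that gene over the 12 lungs; red is higher and blue lower, and lines part the genotypes and the alveolar, Hedgehog and adventitial genes. IL-10 B-WT replicates 2, 3 and 4 are red for Tcf21, Wnt2, Npnt, Inmt and Limch1, and IL-10 B-KO replicates 2 and 6 are blue for most of the 10 genes.

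Relative to genes that lung fibroblasts share, 0 of the 10 markers had an exact permutation p of 0.05 or below. Each marker was set against the mean log2(TPM + 1) of Col1a1, Col1a2, Col3a1, Dcn and Lum in the same lung, which encode fibrillar collagens and small proteoglycans. That reference was 4.53 to 6.72 in controls and 4.11 to 7.40 in knockouts, with a mean higher by 0.46 in the latter (exact permutation p = 0.468), and collagen genes respond to injury themselves. The difference in log ratio was −2.24 for Inmt (p = 0.0887, exact permutation), −1.38 for Tcf21 (p = 0.0671), −1.30 for Npnt (p = 0.0801) and −1.11 for Wnt2 (p = 0.0909), where the groups overlapped each time. All 10 were negative, the smallest being −0.38 for Pi16 (exact permutation p = 0.465). The same reference, higher by 0.46 in knockouts, was subtracted for every marker, so that their common sign is not a separate result about each of them. Without knockout replicate 2, the lung with the lowest reference, 5 of the 10 had such a p, and without control replicate 1 there were 3.

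Other genes of the alveolar subset were described from a list of 23, of which 22 were tested. Of these, 9 were lower and 1 was higher in knockouts with the unadjusted p at 0.05 or below (median log2 fold change −0.50). Angpt1, the ligand that stabilizes vessels through Tie2, was the 1 called, and fell from 10.0 ± 3.37 to 3.55 ± 1.33 TPM (SD, n = 6 each; log2 fold change −1.26, limma adjusted p = 0.0391), although it was called in 2 of 12 fits that each left out 1 lung (adjusted p 0.00669 to 0.121). Which cells of the lung the Angpt1 transcripts came from is not shown by whole-lung RNA. Itga8, the integrin subunit that binds nephronectin, was at 15.3 ± 6.0 and 5.97 ± 2.55 TPM (log2 fold change −1.21, limma adjusted p = 0.111). Egfl6, the homolog of nephronectin, had the opposite sign (13.3 ± 9.03 and 22.8 ± 5.35 TPM, log2 fold change 0.97, limma adjusted p = 0.352), as had the integrin subunit Itgav (log2 fold change 0.51, limma adjusted p = 0.399). The exception among the alveolar genes was Plin2, a lipid droplet coat protein that macrophages also express, at 89.1 ± 64.9 and 317 ± 162 TPM (log2 fold change 1.83, limma adjusted p = 0.139). Without control replicate 1 the counts at the unadjusted p were again 9 lower and 1 higher, with 4 genes called. Without replicate 5 they were 10 and 1, with 0 called.

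Mesenchymal transcription factors beside Tcf21 had the lowest median of the lists around the markers. Of 17 listed, 16 were tested, 10 were lower at that p and 0 higher, 0 were called and the median was −0.67. Tbx5, which patterns lung mesenchyme, ranged over 10.3 to 19.2 TPM in controls and 2.64 to 9.06 TPM in knockouts, with no overlap (log2 fold change −1.19, limma adjusted p = 0.0568). Nr2f1 and Tbx2 followed (log2 fold changes −1.18 and −0.94, limma adjusted p = 0.0981 and 0.124), and Osr1 had the largest difference of the other sign (0.36, adjusted p = 0.651). The count was 9 without control replicate 1, when 5 of them were called, and 8 without replicate 5. The fit without replicate 1 called 232 of all tested genes lower.

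Hedgehog genes around Gli1 included targets with lower means. Of 18 listed, 14 were tested, 4 were lower at an unadjusted p of 0.05 or below and 0 higher, and the median was −0.09. The lower ones were Hhip, the decoy for Hedgehog ligands, Ptch1, the receptor, and the forkhead factors Foxf1 and Foxf2, all of which respond to the pathway as Gli1 does. Foxf1 is counted among the mesenchymal transcription factors as well, and whole-lung RNA does not show which cells made it. Hhip ranged over 4.71 to 9.56 TPM in controls and 1.02 to 4.62 TPM in knockouts, without overlap (log2 fold change −1.14, limma adjusted p = 0.0717). Foxf2 did not overlap either (14.9 to 23.8 and 3.18 to 13.2 TPM, log2 fold change −1.18, limma adjusted p = 0.0833), and Ptch1 was at 9.94 ± 1.91 and 5.27 ± 1.26 TPM (log2 fold change −0.81, limma adjusted p = 0.0719). The value of Gli1 itself was −0.21, and Disp1, which releases the ligands, had 0.21 (limma adjusted p = 0.702). The lower count was 4 without control replicate 1, when 3 were called, and 6 without replicate 5. In the list of 9 peribronchial fibroblast genes, 3 of the 6 tested were lower at that p, namely Hhip, Aspn and Pdlim3.

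Among 30 other genes of Wnt signaling, 27 were tested, 7 were lower at that p, 0 were higher and the median was −0.25. Wnt4, a ligand, ranged over 3.58 to 7.93 TPM in controls and 1.14 to 2.98 TPM in knockouts, without overlap (log2 fold change −0.88, limma adjusted p = 0.115). Axin2 and Lef1, which Wnt signaling induces through β-catenin, were at 10.2 ± 1.30 and 6.83 ± 1.48 TPM and at 7.54 ± 3.68 and 3.28 ± 2.02 TPM (limma adjusted p = 0.237 and 0.232). Lef1 is also expressed by lymphocytes, as B cell progenitors and T cells use it. Sfrp1, a secreted inhibitor, had the largest difference of the other sign (0.84, limma adjusted p = 0.592).

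For Pdgfra, the other PDGF genes were 6, of which 5 were tested and 2 were lower at an unadjusted p of 0.05 or below. Pdgfrb, the receptor of pericytes and many fibroblasts, was called and fell from 54.6 ± 15 to 20.3 ± 7.88 TPM without overlap (log2 fold change −1.44, limma adjusted p = 0.0456), a call that held in 2 of 12 fits that left out 1 lung (adjusted p 0.027 to 0.13). Of the 5, 1 was lower and 1 higher without control replicate 1, and 2 were lower without replicate 5. Pdgfa, the ligand of Pdgfra, was at 48.7 ± 11.3 and 34.1 ± 7.96 TPM (log2 fold change −0.50, limma adjusted p = 0.357). Microfibril and elastic fiber genes beside Mfap4 and Mfap5 went both ways, with 4 of 17 tested lower and 1 higher at that p and a median of 0.13. Ltbp2 and Ltbp4, which encode microfibril-associated proteins, had log2 fold changes of −1.30 and −1.51 (limma adjusted p = 0.0981 and 0.132). Mfap2 had −0.84 (limma adjusted p = 0.328) and Emilin2 had 1.61 (limma adjusted p = 0.341). When control replicate 1 was left out, the elastic fiber list had 4 lower and 4 higher, and without replicate 5 it had 5 and 0.

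In the adventitial list, 21 of 22 genes were tested, 2 were lower and 2 higher at that p, and the median was −0.19. Pcolce2, an enhancer of procollagen processing, was called and fell from 46.9 ± 18.9 to 10.4 ± 5.20 TPM (log2 fold change −2.07, limma adjusted p = 0.0195), and was called in 8 of 12 fits that left out 1 lung (adjusted p 0.00262 to 0.0627), though not with a replicate block (0.107) or with no filter on low TPM (0.0815). The list had, without control replicate 1, 5 lower and 4 higher with 2 called, and without replicate 5 it had 2 and 1 with 0 called. Ly6a, which endothelial and hematopoietic cells also express, had the opposite sign (1210 ± 412 and 2080 ± 580 TPM, log2 fold change 0.81, limma adjusted p = 0.279). Of 14 tested myofibroblast genes, 5 were lower and 2 higher at that p (median 0.17), and Col8a1, a short-chain collagen, was called (2.16 ± 0.637 and 0.527 ± 0.300 TPM, log2 fold change −1.05, limma adjusted p = 0.0236; called in 2 of 12 such fits, 6 of which left it below the filter). Col8a1 passed the filter only through the controls (1.23 to 2.79 TPM), since every knockout lung was below 1 TPM (0.18 to 0.89). It was thus tested only because the controls were the higher group, and its call is given as a description. For the myofibroblast list, leaving out control replicate 1 gave 4 lower and 5 higher of 13 (median 0.96), with 2 called. Leaving out replicate 5 gave 3 and 0 (median 0.59), with 0 called. Of 13 tested genes of inflammatory fibroblasts, 0 were lower and 4 were higher at that p, with a median of 0.81. The 4 were Saa3, Lcn2, Hp and Ccl2 (limma adjusted p = 0.328, 0.356, 0.373 and 0.381), and whole-lung RNA does not show which cells made them. Ccl19 had the largest difference of the other sign (log2 fold change −1.29, limma adjusted p = 0.502). Without control replicate 1, 8 of 12 were higher (2 called), where 2677 of 14930 tested genes were higher at that p. Without replicate 5 it was 1 of 13.

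**Figure D5:**
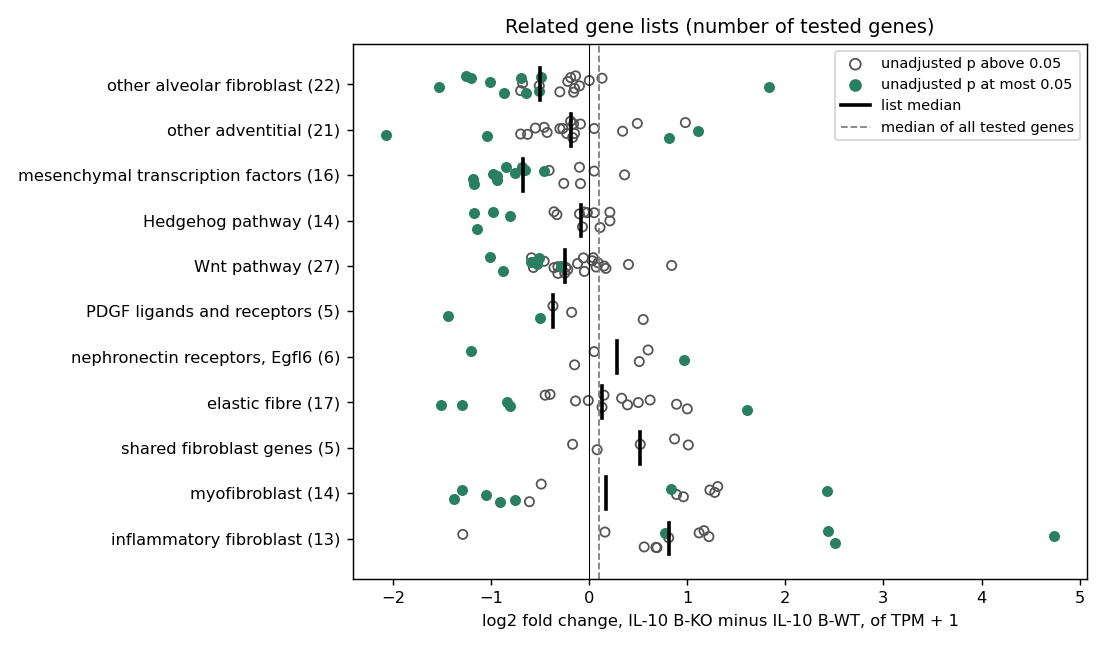
Log2 fold change of TPM + 1, IL-10 B-KO minus IL-10 B-WT, of each tested gene in 11 lists around the markers (number tested in brackets); filled points had an unadjusted p of 0.05 or below, black lines are list medians and the dashed line is the median of all tested genes (0.10). The medians are lowest for the mesenchymal transcription factors (−0.67) and other alveolar fibroblast genes (−0.50) and highest for the inflammatory fibroblast genes (0.81).

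Markers of other cell types also differed between the genotypes. Summed TPM of 9 neutrophil markers was 291 to 2550 in controls and 1050 to 7660 in knockouts, and 8 of the 9 were higher at an unadjusted p of 0.05 or below. The 10 macrophage markers summed to 667 to 11900 and 3440 to 10400 TPM, with 6 of 10 higher, and the 10 alveolar type 2 markers to 4000 to 28800 and 19100 to 31900 TPM, with 7 of 10 higher. In the other direction, 10 of 12 pericyte markers (634 to 1390 and 261 to 681 TPM), 6 of 9 tested smooth muscle markers (336 to 1180 and 143 to 618 TPM) and 8 of 8 B and plasma cell markers (811 to 33300 and 5.53 to 287 TPM) were lower at that p. With all 12 lungs, 5 pericyte markers, Pdgfrb among them, and 4 B and plasma cell markers were called lower. These numbers were 9 and 5 without control replicate 1, and 1 and 2 without replicate 5. Endothelial markers were lower for 2 of 12 (2720 to 6480 and 2900 to 6140 TPM), alveolar type 1 markers for 1 of 10 (1570 to 4770 and 2240 to 3670 TPM), and the 5 genes shared by fibroblasts for 0 of 5 (169 to 1110 and 112 to 1540 TPM). Of the remaining types, 4 of 7 tested mesothelial markers (66.8 to 355 and 216 to 504 TPM) and 2 of 10 cycling-cell markers (18.0 to 281 and 74.7 to 235 TPM) were higher. For airway epithelium (23400 to 99400 and 8470 to 105000 TPM) and T and NK cells (38.1 to 192 and 52.2 to 262 TPM) 0 markers passed in either direction. Several of these counts turned on the 2 control lungs that stood apart. Without control replicate 1, 7 of 12 endothelial, 8 of 9 smooth muscle and 3 of 7 airway markers were lower, and 9 of 10 cycling-cell and 9 of 10 macrophage markers were higher. In that fit 2677 of 14930 tested genes were higher at that p. Without replicate 5, 0 of 12 endothelial, 2 of 9 smooth muscle and 4 of 10 alveolar type 1 markers were lower, and 3 of 10 alveolar type 2, 3 of 10 macrophage and 1 of 10 cycling-cell markers were higher. The count for pericytes was 10 of 12 and that for B and plasma cells 8 of 8 when either lung was left out. For neutrophils it was 8 of 9 without replicate 1 and 6 of 9 without replicate 5. Since TPM of a library share 1 total, the part of these shifts in the levels of the fibroblast markers was not tested. Replicate 1 of the controls, with Inmt at 80.0 TPM, also had the highest neutrophil (2550), macrophage and alveolar type 2 (28800) sums of the 6.

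Genes whose pattern over the 12 lungs was most like that of the markers were ranked by Pearson's r of deviations from the genotype means, so that the genotype difference itself did not enter. For the mean of the 7 alveolar markers the nearest genes included Pcgf1 (r = 0.93, Spearman's rho = 0.89), Adarb1 (0.92, 0.85), Rps4x (0.92, 0.88) and Cadm4 (0.91, 0.89). For single markers the nearest were Spon1 for Pdgfra (r = 0.98), Rnf138 for Tcf21 (0.91), Eif3g for Npnt (0.93), Gm4956 for Inmt (0.95), Atp5o for Wnt2 (0.93) and Ttc38 for Limch1 (0.99). For Mfap4, Gli1, Pi16 and Mfap5 they were Gm10591 (r = 0.96), Art4 (0.92), Tpm2 (0.83) and Islr (0.94). Each was picked as among the highest of all tested genes over 12 lungs that share library totals, and is given as a description.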

How the data were processed

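Total RNA of 12 lungs was sequenced on an Illumina platform. The authors deposited gene levels as TPM, calculated with RSEM; fastp, HISAT and GRCm38.p5 are named in the submitters' processing notes, with versions not given in the sources used here. TPM hide the sequencing depth, so that counting errors and floors are unknown and count models do not apply; precision rests on the spread between lungs.

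Groups were taken from the genotype labels. limma 3.58.1 (R 4.3.3; lmFit, eBayes with a trend) compared the genotypes on log2(TPM + 1), without covariates, for 15148 genes (TPM of 1 or more in 6 libraries or more), with Benjamini-Hochberg adjustment. This scale understates differences of low genes. The script was tested on simulated data. Single values were compared by two-sided exact permutation tests over 924 arrangements, whose smallest p is 0.00216 (SciPy 1.17.1).

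Markers and gene lists were chosen with earlier results of these data known, so that no p was adjusted over a list, and lists share genes. Named were all 10 markers, list members that were called or else the 3 with the smallest p and the 1 with the largest difference of the other sign, and the genes nearest in pattern, of which 1 is not reported here; Plin2, Pdgfa, Foxf1 and Ly6a were named after their values were seen. Other cell types are given as sums and counts. Coordinates are those of the GENCODE M21 annotation of GRCm38, which matched 52081 of 55414 gene IDs, and start-site windows are from RefSeq. Alternatives covered pseudocount, filter, scaling, library weights, a replicate block, thresholds and leaving out each lung. The lists without IL-10 B-WT replicate 1 or 5 were added after seeing the data. So were the fits without each lung for the genes called in the lists around the markers.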

Additional observations from a re-analysis of the deposited data

How the results depend on the processing

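The 0 calls among the 10 markers held under 8 of the alternatives to the fit and under 11 of the 12 fits without a single lung (0 to 1, the 1 being Inmt without IL-10 B-WT replicate 1). Array quality weights, which gave replicates 5 and 1 of IL-10 B-WT the lowest weights (0.157 and 0.458), called 3, namely Tcf21 (log2 fold change −1.08, limma adjusted p = 0.0237), Npnt (−1.18, 0.0174) and Inmt (−2.44, 0.0177), and an unadjusted p of at most 0.05 called 4. Markers lower at the unadjusted p numbered 3 to 5 under all 20 alternatives. Of all genes, 75 were called, against 318 with array weights, 36 with median centring, 6 with no filter on low TPM, 39 with quantile normalization, 45 with a replicate block, 27 when rescaled without immunoglobulin genes, 15 to 576 without 1 lung (the fewest when replicate 5 of IL-10 B-KO was left out, the most when it was replicate 1 of IL-10 B-WT) and 1899 at the unadjusted p alone. Signs turned for Pi16 with median centring (−0.03), with quantile normalization (−0.04) and in fits without 1 lung (−0.07 to 0.28), and for Mfap5 with array weights (0.04) and in fits without 1 lung (−0.34 to 0.07). Ratios to shared fibroblast genes with an exact p of at most 0.05 numbered 1 with a pseudocount of 0.1, 2 against Col5a1, Col5a2, Col6a1, Col6a2 and Col6a3, and 0 to 5 without 1 lung. The cause was not tested. Lungs with the same number did not vary together (correlations of deviations −0.292 to 0.046, none best matched), and the replicate block changed no call of a marker (0 called, 4 lower at the unadjusted p). It did end the calls of all 4 genes called in the lists around the markers, at adjusted p = 0.164 (Angpt1), 0.113 (Col8a1), 0.107 (Pcolce2) and 0.184 (Pdgfrb), as did leaving out the filter (0.0815 to 0.129). The other called pericyte markers and the called B and plasma cell markers were not followed in this way. Angpt1 and Pdgfrb were also not called with median centring (0.0799 and 0.0842), quantile normalization (0.0683 each) and rescaling (0.0624 each). Col8a1 was not called with median centring (0.104), quantile normalization (0.0961) or array weights (log2 fold change −0.96). TPM give no depth, so that precision at 1 to 6 TPM (Wnt2, Gli1) is known from the lungs' spread alone.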
